A study of Mus musculus with 2 samples.

Results

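The 10 genes described here encode the abundant parts and regulators of the cytoskeleton that a droplet assay counts well in liver: the actins Actb and Actg1, the actin monomer binders Tmsb4x, Tmsb10, Pfn1 and Cfl1, the myosin light chain Myl6, and the intermediate filament proteins Vim, Krt8 and Krt18. They were chosen by name, as 10 rows among the 31053 genes of a single-cell count table, and followed across cell classes that were set from marker transcripts other than these genes. Krt8 and Krt18 were taken as the hepatocyte members, and the remaining 8 are called the non-keratin members below.

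Actin cycles between monomers and filaments. Thymosins hold monomers in reserve, profilin hands them to growing filament ends, cofilin severs old filaments, and nonmuscle myosin II pulls on them. Filament tension is known to keep YAP, a transcriptional co-activator that works with TEAD factors, in the nucleus. Hepatocytes carry keratin 8 and keratin 18 as their keratin pair, whereas vimentin is known from mesenchymal, endothelial and blood cells, and thymosins are abundant in leukocytes and platelets.

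Hepatocytes isolated by liver perfusion of C57BL/6 mice were profiled in droplets, each transcript being counted from its 3 prime end. The control library had the genotype LaptTA;WT, in which a liver-active promoter drives the tetracycline transactivator and no inducible transgene is present. The tetYAP 4W library had the genotype LaptTA; tetYAP, in which the same transactivator switches on a mutant YAP. The animals of the study were kept on doxycycline food, which holds the transgene off, until 4 weeks of age, and induction by regular food lasted 4 weeks. Each group was 1 library, so no test between groups was possible, and every interval below is a 95% interval that covers counting error only.

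The control library held 2989 barcodes and the tetYAP 4W library 1524, with medians of 3117 and 4150 unique molecular identifiers (UMIs) per barcode and medians of 28.1% and 37.7% mitochondrial UMIs. Depth ran from 516 to 7277 UMIs in control barcodes and from 2355 to 7493 in tetYAP 4W barcodes. What the absence of shallower tetYAP 4W barcodes does to the class shares was not tested. No barcode sequence occurred in both libraries. Yap1 had 155 control and 128 tetYAP 4W UMIs, and whether transgene transcripts are counted in that row is not given in the sources used here. Xist had 3 UMIs in control barcodes against 4859 in tetYAP 4W barcodes, and 4 Y-linked genes summed to 716 and 0 UMIs, so the sex of the animals and the genotype cannot be told apart. This touches Tmsb4x, which lies on chromosome X.

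A barcode was placed in the class whose marker UMIs reached a set minimum, and barcodes with few markers of every other class were called hepatocyte class. The hepatocyte class had 2798 control and 654 tetYAP 4W barcodes. Macrophage-class barcodes numbered 28 and 266, endothelial-class barcodes 58 and 144, T or NK-class barcodes 12 and 122, and erythroid-class barcodes 5 and 40. The hepatocyte class had 91.8% of all control UMIs and 41.4% of all tetYAP 4W UMIs, and since it is set by few markers of other classes these shares do not check the label of the samples as hepatocytes. No barcode was of the ductal class. Another 3 and 24 barcodes were mixed and 76 and 171 lay between the class limits.

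The markers of hepatocytes did not separate the hepatocyte class from the others. Their median was 386 UMIs per barcode in the control hepatocyte class and between 262 and 443 in the other named control classes. For tetYAP 4W barcodes it was 387.5 against 286 to 324, and 0 of 12 hepatocyte markers were 3-fold higher in the class than outside it in either library. Hepatocyte RNA was thus counted in barcodes of every class. Hepatocyte-class barcodes also had few UMIs of the nuclear RNAs Malat1 and Neat1, with a median of 2 in both libraries, against 25.5 and 37 in the endothelial class. Low medians were shared by the erythroid class (1 and 3) and the stellate class (3 and 4.5). Mitochondrial UMIs made up a median of 28.2% of the hepatocyte class in control and 58.1% in tetYAP 4W barcodes.

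Over all barcodes, the non-keratin members took up more of the tetYAP 4W library and the keratins did not. The 10 members together made up 0.228% of control UMIs and 1.03% of tetYAP 4W UMIs. Scaled to equal totals (counts per 1000000 UMIs, CPM), 7 of the 10 were at least 2-fold higher in the tetYAP 4W library. The same was true of 38.3% of the 12621 genes with at least 10 UMIs (35.2% of the 11152 expected to have 10 in either library), and the median log2 ratio of all those genes was 0.60.

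Among the actins, Actb, the major cytoplasmic actin, had 9159 control and 20206 tetYAP 4W UMIs, which is 963 and 2981 CPM and a log2 ratio of 1.63 (1.59 to 1.67). Actg1, the other cytoplasmic actin, had 802 and 3896 UMIs and a log2 ratio of 2.77. The monomer binders spanned a wider range. Tmsb4x, the main actin-sequestering peptide of blood cells, had 2469 and 30800 UMIs, and its log2 ratio was 4.13. Tmsb10, its close relative, had 267 and 3646 UMIs and a ratio of 4.26. Cfl1 and Pfn1 lay lower, at 1.88 and 1.31. Vim had 23 and 702 UMIs and the highest log2 ratio of the 10, 5.42 (4.82 to 6.09).

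Myl6, an essential light chain of nonmuscle and smooth muscle myosin, had 3347 and 3358 UMIs. Its log2 ratio was 0.49 by totals and -0.04 with edgeR TMM factors. Krt8 had 1170 and 750 UMIs, a log2 ratio of -0.15 (-0.29 to -0.02). Krt18 had 1579 and 966 UMIs, a ratio of -0.22 (-0.34 to -0.10). The signs of both keratin ratios changed to 0.11 and 0.04 when mitochondrial genes were left out of the totals, so no direction is given for them over all barcodes.

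**Figure D1:**
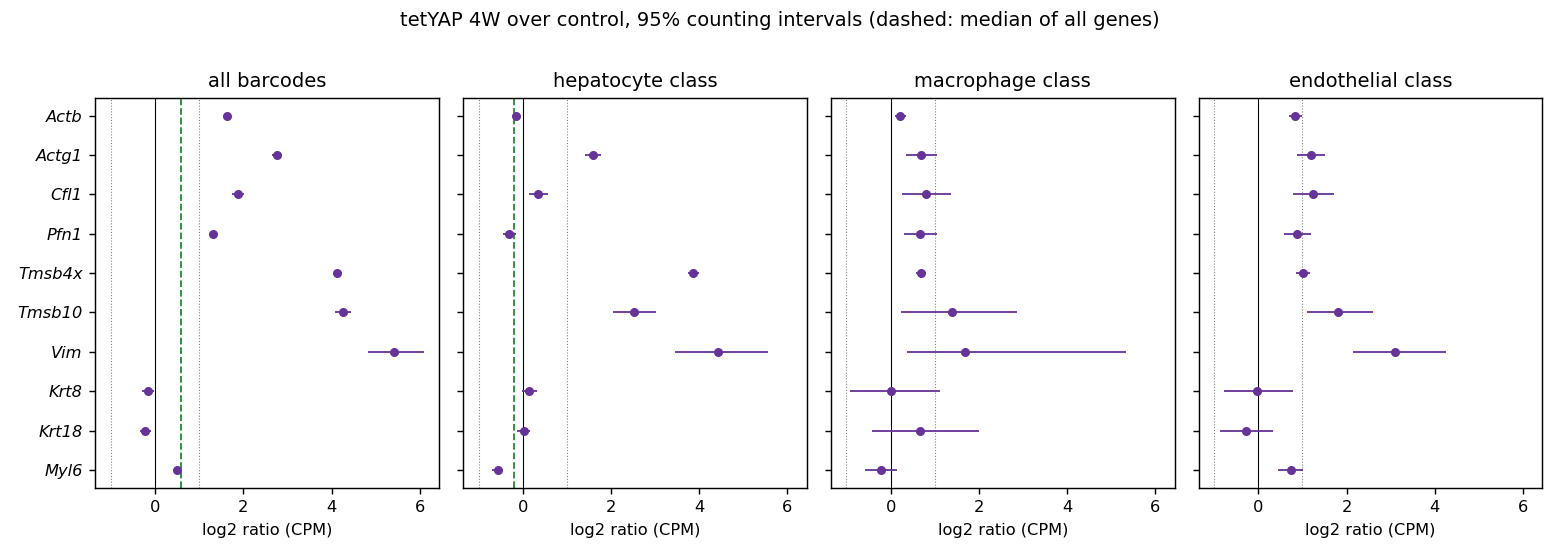
Log2 ratios of CPM, tetYAP 4W over control, for the 10 members (rows) over all barcodes and in 3 marker classes. Points are ratios, bars 95% counting intervals, dotted lines 2-fold and the dashed line the median of all genes, drawn for the first 2 panels. Over all barcodes 7 members lie beyond 2-fold. In the hepatocyte class 4 do (Actg1, Tmsb4x, Tmsb10 and Vim), and the signs of Actb, Pfn1 and Myl6 there depend on whether mitochondrial genes enter the totals.

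The UMIs of the non-keratin members came from different classes in the 2 libraries. Hepatocyte-class barcodes held 73.0% (72.4% to 73.7%) of them in the control but 10.4% (10.1% to 10.6%) in tetYAP 4W. That was below the share of all UMIs in these barcodes in both libraries (91.8% and 41.4%). Macrophage-class barcodes held 34.9% of them in the tetYAP 4W library, with 17.4% of all UMIs.

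Each gene had its own distribution. Macrophage-class barcodes held 38.3% of the Actb UMIs of the tetYAP 4W library and 40.5% of those of Tmsb4x. T or NK-class barcodes held 56.1% of the Tmsb10 UMIs (39.3% in the control), with 8.66% of all UMIs. Vim was counted most in endothelial-class barcodes, which held 32.5% of its UMIs. Of the summed Krt8 and Krt18 UMIs, 93.3% (92.3% to 94.2%) of the control and 50.5% (48.1% to 52.9%) of the tetYAP 4W UMIs lay in the hepatocyte class, both above its share of all UMIs.

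**Figure D2:**
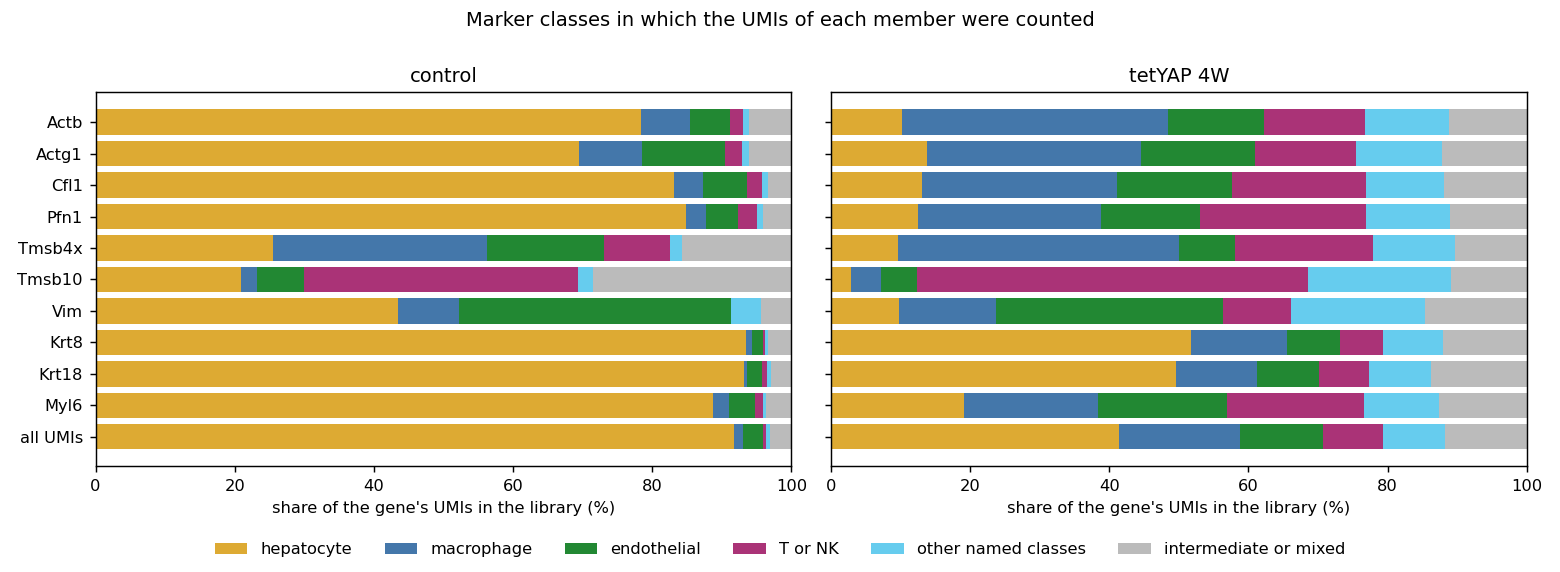
Share of each member's UMIs (x axis, %) counted in each marker class, in the control (left) and tetYAP 4W (right) libraries, with all UMIs in the bottom row. In the tetYAP 4W library the hepatocyte class holds 2.85% of Tmsb10 and 19.1% of Myl6 UMIs, the lowest and highest among the non-keratin members, and 50.5% of the keratin UMIs, against 41.4% of all UMIs.

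Giving the classes of the tetYAP 4W library the weights they had in the control changed the picture over all barcodes. With these weights, chosen after the data were seen, 4 of the 10 members were at least 2-fold higher, as were 17.7% of the 12621 genes under the same weights. The log2 ratio was 3.82 for Vim, 2.32 for Tmsb4x, 1.43 for Actg1 and 1.31 for Tmsb10. It was -0.06 for Actb, -0.15 for Pfn1 and -0.45 for Myl6.

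Within a library, the level per barcode followed the class. In the control, Actb had 2.57 UMIs per hepatocyte-class barcode, 23.3 per macrophage-class, 13.8 per T or NK-class and 9.03 per endothelial-class barcode. The tetYAP 4W values were 3.14, 29.1, 24 and 19.2. Tmsb4x had 0.225 UMIs per control hepatocyte-class barcode against 27.1 per macrophage-class and 19.6 per T or NK-class barcode. The tetYAP 4W levels were 4.51, 46.9 and 50 UMIs per barcode. The order of these classes for Actb was the same in both libraries, and for Tmsb4x macrophage- and T or NK-class barcodes changed places.

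Monocyte or neutrophil-class barcodes, of which the control had 0 and the tetYAP 4W library 35, had the highest mean levels among the named classes of at least 20 barcodes for Actb (47.0 UMIs per barcode), Actg1 (10.5), Cfl1 (3.69), Tmsb4x (69.1) and Vim (2.80). Tmsb10 and Myl6 were highest in T or NK-class barcodes, at 16.8 and 5.42. At CPM, all 8 non-keratin members were at least 2-fold higher in macrophage-class than in hepatocyte-class barcodes of the tetYAP 4W library, as were 48.9% of 6564 genes. In erythroid-class barcodes 1 of the 8 was (Tmsb10), with 1.82% of 877 genes.

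**Figure D3:**
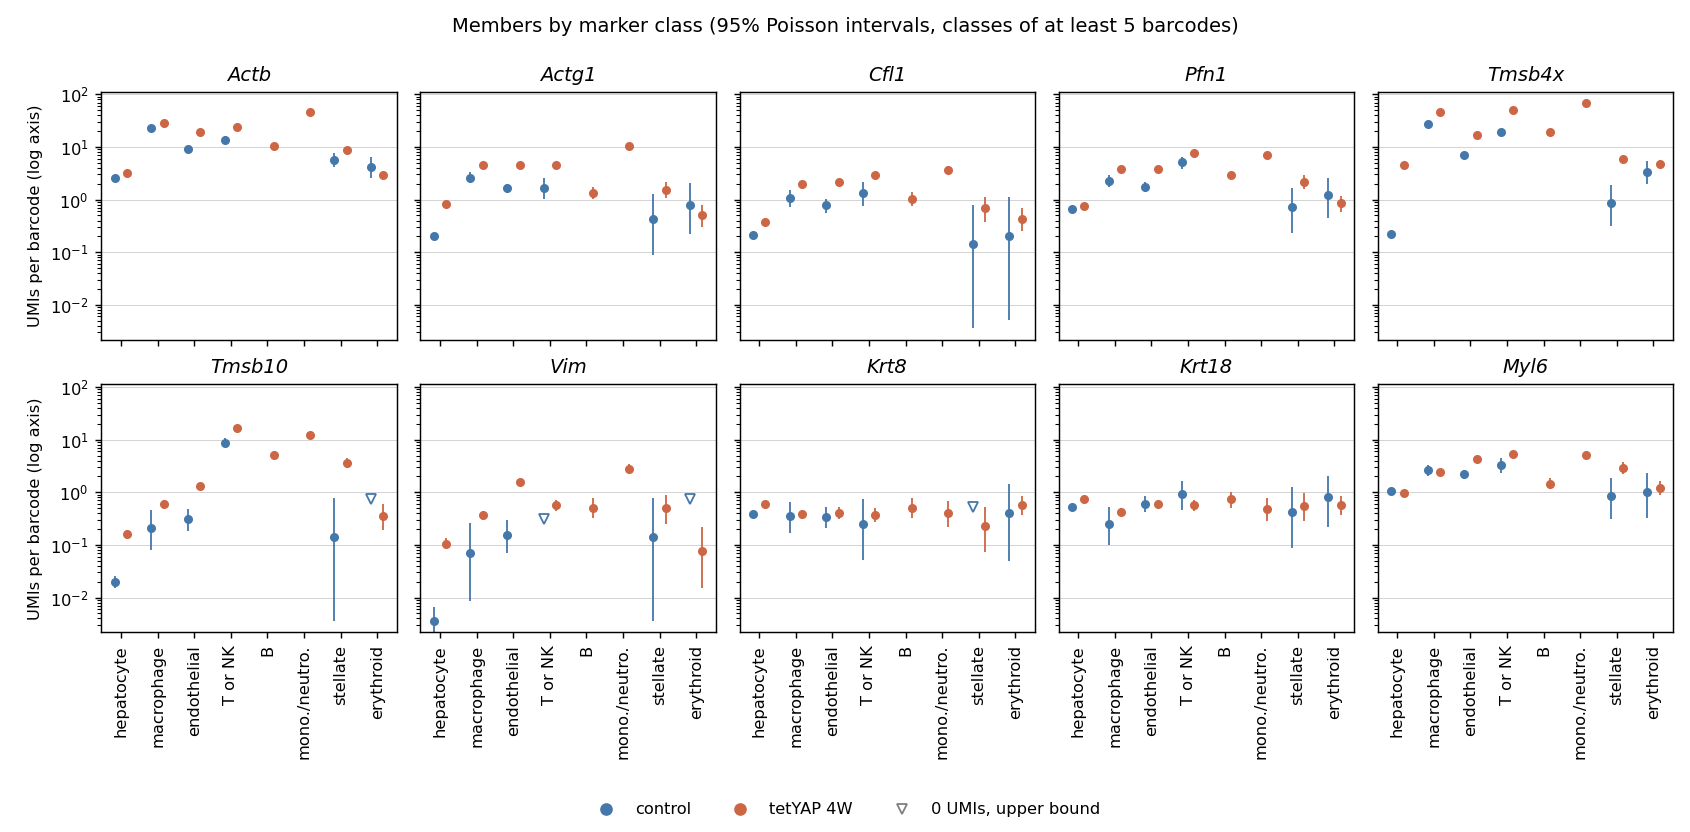
UMIs per barcode (log axis) of each member by marker class in the control (blue) and tetYAP 4W (orange) libraries, with 95% Poisson intervals; open triangles are upper bounds where a class of the control had 0 UMIs. In the tetYAP 4W library the non-keratin members are lowest in hepatocyte- and erythroid-class barcodes. Krt8 and Krt18 stay between 0.227 and 0.733 UMIs per barcode in all tetYAP 4W classes shown. The control order differs for some members, with 1 Cfl1 UMI in the 7 stellate-class barcodes.

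In hepatocyte-class barcodes, 4 of the 10 members were at least 2-fold higher in the tetYAP 4W library at CPM, against 15.6% of 10714 genes with at least 10 UMIs. The share was 8.45% over the 7832 genes expected to have 10 UMIs in the smaller set. The median log2 ratio was 0.97 over the 8 non-keratin members and -0.21 over all genes. Leaving mitochondrial genes out of the totals shifted every gene by 0.67. In Leiden clusters made without the cytoskeleton genes, 2790 of the 2798 control and 648 of the 654 tetYAP 4W barcodes of the class lay in clusters that held none of the class from the other library, so the library and the cluster cannot be told apart here.

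Actb had 7177 UMIs in 2798 control barcodes and 2056 in 654 tetYAP 4W barcodes, or 822 and 734 CPM. Its log2 ratio was -0.16 by totals, 0.51 without mitochondrial genes and 0.29 per barcode, so its direction depended on the scale. Actg1 had 557 and 538 UMIs, 63.8 and 192 CPM, and a log2 ratio of 1.59 (1.41 to 1.76), and it stayed between 1.5 and 2.62 in every alternative run. Actg1 was detected in 17.6% of control and 51.2% of tetYAP 4W hepatocyte-class barcodes, and in 32.5% of the tetYAP 4W erythroid-class barcodes described below. With every barcode thinned to 1000 UMIs, Actg1 was found in 6.60%, 17.6% and 12.5%.

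The Actg1 gene lies at chr11:120345687-120348495 on the minus strand of GRCm38.p6. Of 12 promoter windows that RefSeq gives on this build for 9 of the members, the 250 bases before the start hold a CArG box, the motif of serum response factor, in 2: Actg1 and 1 of 2 Myl6 windows. Serum response factor is known to drive actin genes when monomeric actin is scarce. The box occurs in 1.47% of 32851 such windows. GGAATG, a TEAD motif read on both strands, occurs in 1 of the 12 windows, that of Pfn1, and in 12.6% of all. A match is a description of the letters only. The Actg1 window at chr11:120348496-120348745 is shown on the strand of the gene because this actin was higher in the hepatocyte class under every scale, with the CArG box in capitals, 80 bases from the start:
Actg1: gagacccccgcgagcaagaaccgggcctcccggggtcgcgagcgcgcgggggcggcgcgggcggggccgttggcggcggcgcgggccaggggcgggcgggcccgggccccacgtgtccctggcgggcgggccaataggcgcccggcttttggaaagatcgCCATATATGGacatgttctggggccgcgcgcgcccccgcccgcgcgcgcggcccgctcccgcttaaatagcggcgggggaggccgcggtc

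Tmsb4x had 630 and 2949 UMIs in hepatocyte-class barcodes, 72.2 and 1052 CPM, and a log2 ratio of 3.87 (3.74 to 3.99). It was detected in 18% of control and 96.5% of tetYAP 4W barcodes of the class. After thinning every barcode to 1000 UMIs, which left out 25 control barcodes, these shares were 6.13% and 59.0%. Tmsb10 had 56 and 104 UMIs and a ratio of 2.53 (2.05 to 3.03). Vim had 10 and 69 UMIs and a ratio of 4.43 (3.46 to 5.55). The summed macrophage markers of hepatocyte-class barcodes moved with these genes, from 0.0893 UMIs per control barcode to 2.95 per tetYAP 4W barcode, against 4.15 per tetYAP 4W erythroid-class barcode. The part of macrophage RNA in these ratios was not tested.

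Erythroid-class barcodes, which are defined by globin and other red cell transcripts, served as a reference for RNA counted outside its cell of origin. How much of these genes red cells make themselves was not tested. Tmsb4x had 4.51 UMIs per hepatocyte-class barcode and 4.85 per erythroid-class barcode of the tetYAP 4W library, a ratio of 0.93 (0.80 to 1.08), at median depths of 4016.5 and 3414 UMIs. It was detected in 97.5% of erythroid-class barcodes, and in 60.0% after thinning. The 5 erythroid-class barcodes of the control had 17 Tmsb4x UMIs. Actb (1.06, 0.88 to 1.28), Cfl1 (0.88, 0.54 to 1.54), Pfn1 (0.87, 0.61 to 1.27) and Myl6 (0.80, 0.60 to 1.10) also had ratios to the erythroid class with intervals that included 1, and Vim had 3 UMIs in all erythroid-class barcodes. Tmsb10 was lower in the hepatocyte class, at 0.45 (0.26 to 0.86). At this depth these levels per barcode were not distinguishable from those in erythroid-class barcodes, or lay below them. At CPM, Tmsb4x and Myl6 were higher in the erythroid than in the hepatocyte class. Their log2 ratios were 0.29 (0.07 to 0.50) and 0.50 (0.05 to 0.92). The CPM intervals of Actb, Cfl1 and Pfn1 spanned both signs. The limit on macrophage markers applies to the hepatocyte side of these ratios only.

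Actg1 had 0.823 against 0.5 UMIs per erythroid-class barcode, a ratio of 1.65 (1.05 to 2.72) per barcode. At CPM the log2 ratio of the erythroid to the hepatocyte class was -0.54 (-1.26 to 0.10), an interval that included 0. The totals behind CPM differ in make-up as well as in depth. Median mitochondrial shares were 58.1% in the hepatocyte and 28.7% in the erythroid class, which also had a median of 913.5 erythroid marker UMIs. This ratio without mitochondrial genes was not computed. In hepatocyte-class barcodes with at least 10 UMIs of Malat1 and Neat1, 42 control and 69 tetYAP 4W barcodes, Actg1 had 0.986 UMIs per tetYAP 4W barcode, 1.97 times (1.18 to 3.43) the erythroid level per barcode. A single hepatocyte-class barcode of the tetYAP 4W library held 303 UMIs of the non-keratin members, the next 49, together with 50 UMIs of Ppbp and 48 of Pf4, genes of platelets. Without it, a choice made after the data were seen, the Actg1 ratio to the erythroid class was 1.57 (1.01 to 2.59) and the same 4 members were at least 2-fold higher than in the control.

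Cfl1 had 597 and 245 UMIs in the class, and its log2 ratio was 0.35 (0.13 to 0.57) and above 0 in every alternative run. Pfn1 had 1859 and 484 UMIs and a ratio of -0.30 by totals, which was 0.37 without mitochondrial genes. Myl6 had 2972 and 643 UMIs and a ratio of -0.57, which was 0.10 without mitochondrial genes. Relative to the median of all genes with at least 10 UMIs (-0.21), the class had Pfn1 at -0.10, Actb at 0.04 and Myl6 at -0.36. A common rescaling does not move these values, but they depend on the gene filter. Over the 7832 genes expected at 10 UMIs in the smaller set the median was -0.39, which is below the ratio of Pfn1.

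For both keratins, the interval of the ratio in the hepatocyte class included 0 when scaled by totals. Krt8, the type II keratin of simple epithelia, had 1093 and 388 UMIs, 125 and 138 CPM, and a log2 ratio of 0.14 (-0.03 to 0.31). Krt18, its type I partner, had 1471 and 479 UMIs, 169 and 171 CPM, and a ratio of 0.02 (-0.13 to 0.17). Without mitochondrial genes in the totals the ratios were 0.82 and 0.69, and per barcode 0.60 and 0.48.

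Krt8 and Krt18 lie next to each other in opposite directions on chromosome 15, with starts at 102004342 and 102028216, 23874 bases apart on GRCm38.p6. Their windows before the start, at chr15:102004343-102004592 (minus strand) and chr15:102027966-102028215 (plus strand), are shown because these genes are the keratin pair of hepatocytes. Neither holds a CArG box or GGAATG, so no letters are in capitals:
Krt8: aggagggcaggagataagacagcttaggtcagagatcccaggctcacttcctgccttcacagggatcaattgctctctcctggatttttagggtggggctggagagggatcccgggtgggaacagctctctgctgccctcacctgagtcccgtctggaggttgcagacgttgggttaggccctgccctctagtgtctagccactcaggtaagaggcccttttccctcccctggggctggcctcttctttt
Krt18: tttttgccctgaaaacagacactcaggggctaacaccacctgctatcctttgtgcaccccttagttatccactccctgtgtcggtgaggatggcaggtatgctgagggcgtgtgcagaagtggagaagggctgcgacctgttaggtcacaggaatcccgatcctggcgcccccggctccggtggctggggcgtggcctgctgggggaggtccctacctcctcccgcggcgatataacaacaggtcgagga

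Per barcode, Krt18 of control macrophage-class barcodes was at 0.48 times (0.19 to 0.98) the hepatocyte-class level. The other keratin ratios of control macrophage-, endothelial- and T or NK-class barcodes to that level had intervals that included 1. Krt8 had 0.391 UMIs per hepatocyte-class barcode, 0.357 per macrophage-class and 0.345 per endothelial-class barcode, and Krt18 had 0.526, 0.250 and 0.603. Krt8 of the tetYAP 4W library had 0.593 UMIs per hepatocyte-class and 0.575 per erythroid-class barcode, a ratio of 1.03 (0.68 to 1.65), and for Krt18 the ratio was 1.27 (0.84 to 2.03).

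Barcodes rich in nuclear RNA were compared after the data were seen. The 69 hepatocyte-class barcodes of the tetYAP 4W library that were rich in nuclear RNA had 0.783 Krt8 and 1.04 Krt18 UMIs per barcode. The barcodes of all other named classes had 0.403 and 0.524, so the ratios were 1.94 (1.42 to 2.61) and 1.99 (1.52 to 2.57). The 585 barcodes poor in nuclear RNA also exceeded those classes, at 1.42 (1.2 to 1.67) and 1.33 (1.15 to 1.53). Relative to the erythroid class, the rich barcodes had ratios of 1.36 (0.82 to 2.32) for Krt8 and 1.81 (1.12 to 3.04) for Krt18. In the control the 42 such barcodes had 0.357 Krt8 and 0.619 Krt18 UMIs, against 0.330 and 0.545 in the other named classes. Both keratins were detected together in 27.5% of the 69 barcodes, in 11.9% of the 42, and in 12.7% of tetYAP 4W barcodes of other named classes. The share expected from independent detection was not computed, so no pairing beyond the level of each gene is read from these shares.

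Between the libraries, barcodes of the hepatocyte class rich in nuclear RNA had a log2 ratio of 1.11 (0.27 to 2.05) for Krt8 and 0.74 (0.07 to 1.44) for Krt18. With 15 and 26 UMIs in the control these intervals are wide. In this set 5 of 10 members were at least 2-fold higher, with 15.6% of 4931 genes, or 10.6% of the 1837 expected at 10 UMIs. Among barcodes of the class with at most 30% mitochondrial UMIs, 1721 control and 85 tetYAP 4W barcodes, the keratin ratios were 1.05 and 1.16 and 7 of 10 members were at least 2-fold higher, with 52.3% of 9491 genes, or 10.9% of the 2228 expected at 10 UMIs.

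**Figure D4:**
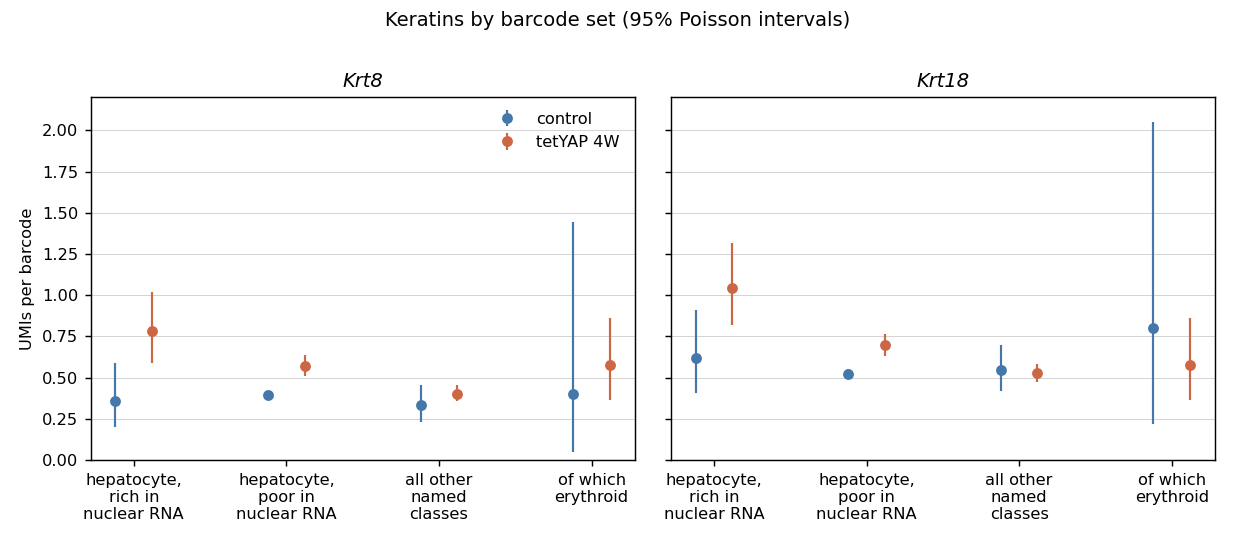
Krt8 and Krt18 UMIs per barcode (y axis) in 4 barcode sets of the control (blue) and tetYAP 4W (orange) libraries, with 95% Poisson intervals. The tetYAP 4W hepatocyte-class barcodes rich in nuclear RNA are highest, at 0.783 and 1.04 UMIs, and the control sets overlap each other.

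Within macrophage-class barcodes the log2 ratios of Actb, Actg1, Cfl1, Pfn1, Tmsb4x, Tmsb10 and Vim were lower than over all barcodes. At CPM 2 of the 10 members were at least 2-fold higher, with 2.96% of 8211 genes, or 8.25% of the 1261 genes expected at 10 UMIs in the smaller set. These were Tmsb10, with 6 UMIs in 28 control and 161 in 266 tetYAP 4W barcodes, and Vim, with 2 and 98. Against a floor of 3 UMIs the Vim ratio was 1.68 (0.38 to 5.34), and it was -0.66 after thinning. Tmsb4x had 6531 and 10542 CPM, a log2 ratio of 0.69 (0.59 to 0.80), and Cfl1 was at 0.79, Actg1 at 0.69 and Pfn1 at 0.67. Actb was at 0.22 (0.11 to 0.34), a sign that changed to -0.02 with class minimums lowered. The intervals of Myl6 (-0.22), Krt8 (0.02, from 10 and 103 UMIs) and Krt18 (0.67, from 7 and 113 UMIs) included 0.

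Endothelial-class barcodes had all 8 non-keratin members higher in the tetYAP 4W library. The median log2 ratio of the 8253 genes with at least 10 UMIs there was also above 0, at 0.18. Of the 10 members, 8 lay above that median. Most of the class lay in a different Leiden cluster in each library, 51 of 58 control barcodes in a cluster with 2 of the tetYAP 4W class and 119 of 144 tetYAP 4W barcodes in one with 5 of the control class. At CPM 5 of 10 were at least 2-fold higher, with 13.4% of 8253 genes (14.2% of the 3567 expected at 10 UMIs), and with edgeR TMM factors 2 of 10 were, with 7.83% of genes. Vim, the intermediate filament protein of endothelium, had 9 UMIs in 58 control barcodes and 228 in 144 tetYAP 4W barcodes, a log2 ratio of 3.10 (2.15 to 4.25). It was detected in 13.8% and 62.5% of these barcodes. Tmsb10 was at 1.81 (1.11 to 2.59), Cfl1 at 1.23, Actg1 at 1.19, Tmsb4x at 1.01, Pfn1 at 0.88, Actb at 0.84 and Myl6 at 0.73. The keratins had 20 and 58 UMIs (Krt8) and 35 and 85 (Krt18), and both intervals included 0.

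T or NK-class barcodes numbered 12 in the control, and 2 of the 10 members were at least 2-fold higher, Actg1 at 1.28 (0.64 to 2.0) and Tmsb4x at 1.15 (0.97 to 1.35). The same was true of 2.49% of 5862 genes, or 13.6% of the 487 expected at 10 UMIs in the smaller set. Tmsb10, the member most concentrated in this class, was at 0.74 (0.46 to 1.04). Vim had 0 UMIs in the 12 control barcodes and 69 in the 122 tetYAP 4W barcodes.

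Around the members, 6 lists of other cytoskeleton genes held 90 genes, chosen with earlier results of these data known. In hepatocyte-class barcodes 61 had at least 30 UMIs, of which 15 were at least 2-fold higher and 5 at least 2-fold lower in the tetYAP 4W library, with a median log2 ratio of 0.19. The background over genes with at least 10 UMIs, a lower limit than the 30 of the lists, was 15.6% higher and 17.5% lower. Over the 7832 genes expected at 10 UMIs in the smaller set it was 8.45% and 21.2%. Over all barcodes 55 of 77 were higher and 2 lower, with a median of 1.64. Genes with at least 10 UMIs had shares of 38.3% and 7.89% and a median of 0.60. Those expected at 10 UMIs had shares of 35.2% and 7.78%. The shift of 0.67 without mitochondrial genes applies to these hepatocyte-class ratios too.

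Log2 ratios in the hepatocyte class follow each gene in parentheses, and the lists differed in their counts. Of the 14 bundlers, crosslinkers and adhesion adaptors counted, 7 were at least 2-fold higher, led by Tagln2 (3.91), a transgelin that binds actin filaments, and Flna (3.64), the filamin that crosslinks them. In the list of monomer handling 1 of 9 was higher, Cotl1 (3.09), a cofilin antagonist, and 2 were lower, Cfl2 (-1.06), the muscle-type cofilin, and Dstn (-1.03), a relative of cofilin. Of 16 genes of the Arp2/3 complex and its activators, 2 were higher and 1 lower, and 4 intervals lay above and 6 below 0. The share of all genes with such intervals was not computed, and the median of all genes in the class was -0.21. Coro1a, the coronin of leukocytes, had 3 control and 36 tetYAP 4W UMIs (5.22, 3.56 to 7.57). Arpc5l, a subunit of the Arp2/3 complex, was at -1.32. Per barcode, Tagln2, Flna, Cotl1 and Coro1a were between 0.44 and 1.25 times the erythroid level, with intervals that included 1.

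Of the 10 genes counted in the myosin and tropomyosin list, 4 were at least 2-fold higher. Myh9, the main heavy chain of nonmuscle myosin II, had 153 UMIs in control and 228 in tetYAP 4W hepatocyte-class barcodes, with a log2 ratio of 2.21 (1.91 to 2.52). Myh9 reached 0.349 UMIs per hepatocyte-class barcode against 0.050 per erythroid-class barcode, 6.97 times (1.91 to 57.9), the latter from 2 UMIs. Relative to all other named classes, Myh9 was lower in the hepatocyte class, at 0.63 (0.54 to 0.75). Myh14, another heavy chain of nonmuscle myosin II, was at 2.08 (1.34 to 2.84). It had 1.96 times (1.11 to 3.56) the level of all other named classes, and the hepatocyte class held 55.1% of its tetYAP 4W UMIs. The ratio of Myh14 to the erythroid level, from 1 erythroid-class UMI, was 2.32 (0.39 to 94.2), an interval that included 1. Cald1, which binds actin and myosin, was at -0.70.

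The tubulins had 1 of 8 at least 2-fold higher, Tubb6 (2.64, from 12 and 24 UMIs), and 2 lower, Tuba4a (-1.37) and Tubg1 (-1.23), the gamma tubulin of centrosomes. In the list of intermediate filaments and linkers 4 of 14 had 30 UMIs, and none of these was beyond 2-fold. Plec, the linker plectin, was at 0.71 (0.27 to 1.15) and Lmna, the A-type lamin of the nuclear envelope, at 0.64 (0.32 to 0.97). Lmna had 1.69 times (1.25 to 2.29) the per-barcode level of the other named classes in the tetYAP 4W library. Its ratio to the erythroid level was 1.06 (0.50 to 2.69), an interval that included 1.

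**Figure D5:**
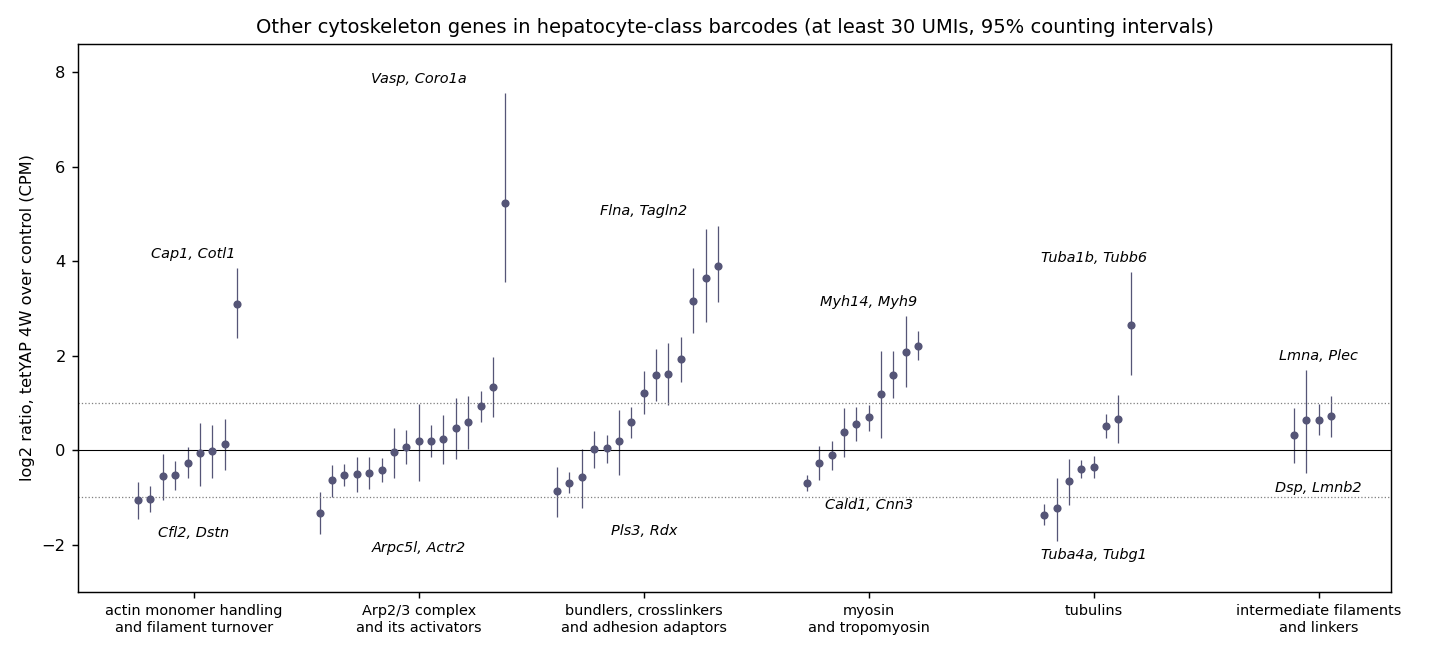
Log2 ratios of CPM, tetYAP 4W over control, in hepatocyte-class barcodes for genes of 6 cytoskeleton lists other than the members (at least 30 UMIs, 95% counting intervals, dotted lines at 2-fold). The named genes are the 2 highest and 2 lowest of each list, in the order of the points. Bundlers and adaptors lie highest as a list, with a median of 0.90, and tubulins lowest, with -0.37, a sign that turns with the shift of 0.67 when mitochondrial genes are left out of the totals.

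Across the 9 class-by-library groups with at least 30 barcodes, the genes with the most similar pattern to a member were described by Pearson's r of log2 (CPM + 10), with no test, since the groups share libraries and free RNA. For Actb these were Nfkbia (0.99), Rhog (0.99) and Arpc4 (0.98), for Actg1 Cotl1, Ccnl1 and Nup153 (0.97 to 0.98), and for Tmsb4x Cyba (0.98), Mycbp2 (0.96) and Iqgap1 (0.95). Tmsb10 was nearest to Limd2 (0.98), Cyld (0.97) and Psmb8 (0.96). Cfl1 and Pfn1 were among the 3 nearest of each other (0.97), beside Arpc1b and Hspa8 for Cfl1 and Anp32b and Psmb8 for Pfn1.

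Vim was nearest to Thoc2 (0.96), Mvp (0.94) and Tagln2 (0.94), and Myl6 to Abcf1 (0.97), Ppp1r14b (0.96) and Sept9 (0.96). Of the keratins, Krt8 was nearest to Ces1g (0.95), Inmt (0.92) and Inhbc (0.91), and Krt18 was nearest to Ptprd (0.94), Mbl2 (0.93) and Serpind1 (0.93).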

How the data were processed

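Single-cell RNA-seq was deposited for 1 control and 1 tetYAP 4W library. The authors deposited raw counts of UMIs per gene and barcode. Per the labels and methods, reads were processed with Cell Ranger on mm10 and Seurat 3, at most 3000 barcodes were kept for each condition and those over 7500 UMIs dropped. Counts were used as deposited, over 31053 genes and 4513 barcodes; how reads of the transgene were assigned is not given in the sources used here.

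Groups were taken from the genotype labels. Classes were set from summed marker UMIs. A barcode needed a minimum of 8 UMIs (12 for macrophage and erythroid, 16 for endothelial markers). It went to the class with the highest sum relative to its minimum. It was mixed where a second class also reached its minimum and at least 0.5 of the relative sum of the first. It was of the hepatocyte class with under 4 UMIs of each other class (8 for macrophages). Others were intermediate. No doublet caller was run. UMIs were summed per library and class and scaled to CPM by their total. Ratios used a floor of 3 UMIs. Intervals at 95% were exact Poisson (sums), Clopper-Pearson (shares) and conditional binomial (ratios), and floors and intervals cover counting error only. The expected-count filter kept genes that would have 10 UMIs in the smaller set at the pooled level. The members, lists and named genes were chosen with earlier results of these data known. Named genes were the 10 members, the 2 highest and 2 lowest non-members of each list by log2 ratio in the hepatocyte class among those with at least 30 UMIs, and the 3 genes of most similar pattern with at least 200 UMIs. Myh9, Ppbp and Pf4 values per barcode were looked at after other values were seen.

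Ratios were tested on simulated data with 200 changed genes. For all barcodes 97% of them lay within their interval (11152 genes), and for the hepatocyte class 95.5% (7832 genes). The macrophage and endothelial classes had 94% each, and the lowest value was 88% of 50 endothelial genes at 0.5-fold. The counts were Poisson draws, the model behind the intervals, so these shares check the computation and not the spread between barcodes or animals. Promoters and positions came from RefSeq tables of GRCm38.p6, which mm10 also denotes. Alternatives were TMM factors (edgeR 4.0.16, used for scaling alone), other totals, equal weight per barcode, a limit of 30% mitochondrial UMIs, thinning to 1000 UMIs, other class minimums, Leiden clusters (scanpy 1.11.5) and an offset of 0.5 UMIs. Python 3.11.15 and R 4.3.3 were used.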

Additional observations from a re-analysis of the deposited data

Results flagged for a closer look

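Some members had ratios of opposite sign between classes, with both intervals excluding 0. The difference between classes was not tested, since each group had 1 library. Actb was at -0.16 in hepatocyte-class barcodes and at 0.22 in macrophage-, 0.84 in endothelial- and 0.60 in T or NK-class barcodes. Pfn1 was at -0.30 in hepatocyte-class barcodes and at 0.67, 0.88 and 0.38 in the same classes. Myl6 was at -0.57 in hepatocyte-class barcodes and at 0.73 in endothelial- and 0.54 in T or NK-class barcodes. The mitochondrial share moved with these values, from 28.2% to 58.1% in the hepatocyte class, and without mitochondrial genes in the totals the hepatocyte-class ratios of Actb, Pfn1 and Myl6 were 0.51, 0.37 and 0.10. The part of the mitochondrial share in the difference between classes was not tested.

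Barcodes between the class limits, which entered the totals over all barcodes but no named class, also held UMIs of the non-keratin members. The 171 such barcodes of the tetYAP 4W library had 28.7 per barcode, and the 76 of the control had 14.3.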

How the results depend on the processing

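No paired analysis was possible because each group has 1 library. Of 430 member ratios recomputed, 28 changed sign where the interval of the main ratio excluded 0. Sign changes of ratios whose main interval included 0 were not counted. Values below are log2 ratios, tetYAP 4W over control, and shares are those of tetYAP 4W UMIs in the hepatocyte class. With edgeR TMM factors, Myl6 over all barcodes was -0.042 and, in the hepatocyte class, Actb was 0.080, Krt8 0.39, Krt18 0.27 and the non-keratin median 1.22, and 2 members were 2-fold higher in the endothelial class. Without mitochondrial genes, Krt8 and Krt18 were 0.11 and 0.041 over all barcodes and 0.82 and 0.69 in the hepatocyte class, with Actb at 0.51, Pfn1 at 0.37, Myl6 at 0.10 and the median at 1.65. Without the 50 most abundant genes as well, which include Actb and Tmsb4x, the hepatocyte class had Actb at 0.42, Pfn1 0.28, Myl6 0.016, Krt8 0.73, Krt18 0.61 and the median 1.56. At most 30% mitochondrial UMIs gave 7 members, Actb at 0.62, Pfn1 0.66, Myl6 0.47, Krt8 1.05, Krt18 1.16, the median 1.92, and shares of 2.99% (non-keratin) and 32.3% (keratin UMIs). Thinning gave Krt18 at 0.034 over all barcodes and 0.23 in the hepatocyte class, a non-keratin share of 12.5%, and in the macrophage class 1 member, with Vim at -0.66. Lowered class minimums gave shares of 8.71% and 45.8%, and Actb at -0.018 in the macrophage class. Leiden clusters gave shares of 14.5% and 62.6%, and Actb at 0.0089 in the hepatocyte class. Adding 0.5 UMIs, with no floor, moved none of 40 ratios beyond its interval. The next 3 settings were chosen after the data were seen. UMIs per barcode gave Krt8 and Krt18 at 0.33 and 0.26 over all barcodes, and Actb at 0.29, Pfn1 0.16, Krt8 0.60, Krt18 0.48 and the median 1.43 in the hepatocyte class. Barcodes rich in nuclear RNA gave Actb at 0.24, Pfn1 0.032, Krt8 1.11 and Krt18 0.74. With control class weights 4 members were 2-fold higher over all barcodes, with Actb at -0.062, Pfn1 -0.15, Myl6 -0.45, Krt8 0.14 and Krt18 0.022. The cause of these changes was not tested. Depth limits Vim and Tmsb10 most, with 10 and 56 UMIs in the control hepatocyte class.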
